A study of Xenopus laevis with 5 samples.

Results

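The genes described here encode the proteins of the cytosolic ribosome in the African clawed frog Xenopus laevis. They were taken as every gene whose symbol is that of a protein of the large subunit (rpl and rplp) or of the small subunit (rps and rpsa), with the ribosomal protein kinases and the mitochondrial ribosomal proteins left out. The rule gave 73 genes, present as 95 gene copies and measured by 200 of the 43653 gene probes on the array. The large subunit had 45 of the genes and 112 of the probes, and the small subunit had 28 genes and 88 probes. The near relatives rpl3l, rpl7l1 and rpl22l1 also came under the rule. In all, 137 symbols of the gene table fitted the rule, and the 42 without a probe were not analysed here. No probe was found for rps14, rps27l, rpl10l or rpl39l.

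RNA was measured in testes of males raised from tadpoles of NF stage 46 (a stage of the Nieuwkoop and Faber series) for 90 days at 0 µg/L of simazine (2 control samples), or in water that held simazine at 100 µg/L (3 samples). This compound is a chlorotriazine herbicide, and the question was which genes respond to it in developing males. Each sample was run on 1 single-colour array, and no strain or genotype was given. Nothing says that the testes came from separate animals, so the p-values measure only how far these samples differ among themselves, and part of that spread may be technical.

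A ribosome reads the messenger RNA with its small subunit and joins amino acids with its large subunit, and almost every ribosomal protein is present once in each particle. The messenger RNAs of these proteins begin with a tract of pyrimidines through which their translation is tied to growth signals that run through mTOR. Xenopus laevis carries doubled chromosomes, so many genes have an L and an S copy, named after the longer and the shorter chromosome of each pair. Growing frog oocytes are known for storing very large numbers of ribosomes for the embryo.

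The arrays differed in ways that touched many of these probes. Arrays that share a scan time were taken as 1 slide, which put control 1 and simazine 2 on slide 1 and control 2, simazine 1 and simazine 3 on slide 2. Only the scan time was used for this, so a slide and a scan cannot be told apart here. The 75th percentile of the signal over gene spots was 6692.6 on control 1 and 4883.3 on simazine 2, against 2380.0, 2475.8 and 1564.1 on control 2, simazine 1 and simazine 3. The scanner software marked 32.5% of the ribosomal protein spots as non-uniform or outlier on each array of slide 1, where it marked 44.0% and 42.6% of all gene spots. On slide 2 it marked 73.0%, 70.5% and 50.5% of them, against 10%, 9.59% and 5.78% of all gene spots. The marking moved with brightness: on control 1 none of the 72 ribosomal protein spots above a log2 signal of 19 was marked, and on control 2 all 47 between 15 and 17 were. Only 6 of the 200 probes had no marked spot on any array. In some areas of the arrays the median of neighbouring spots was also shifted. A spot was counted as lying in a distorted area where the median deviation of its neighbourhood from the 5-array median passed 0.5 on the log2 scale on any array, and 53 of the 200 probes lay in such areas.

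Most of the ribosomal protein probes were read far above background in every testis sample. All 200 probes were well above background on control 1 and simazine 2, and 199 were on each of the other arrays. On the scale used throughout, log2 signal minus the array's 75th percentile, the 200 probes had a median of 6.0 for control 1 and 5.32 for control 2. Their median was 5.67 for simazine 1, 6.06 for simazine 2 and 3.83 for simazine 3. Both control medians lay between those of simazine 2 and 3, so the groups overlapped, and simazine 3 stood apart from the other 4. Across the 200 probes the levels correlated at 0.94 between the arrays of slide 1 and at 0.90 to 0.93 between those of slide 2, against 0.77 to 0.83 between slides. Over all gene spots the values were 0.97 on slide 1, 0.95 to 0.97 on slide 2 and 0.93 to 0.97 between slides. These correlations are across probes that share arrays and brightness and are given as a description. Fewer cells of a type and less RNA per cell cannot be told apart in such bulk samples.

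**Figure D1:**
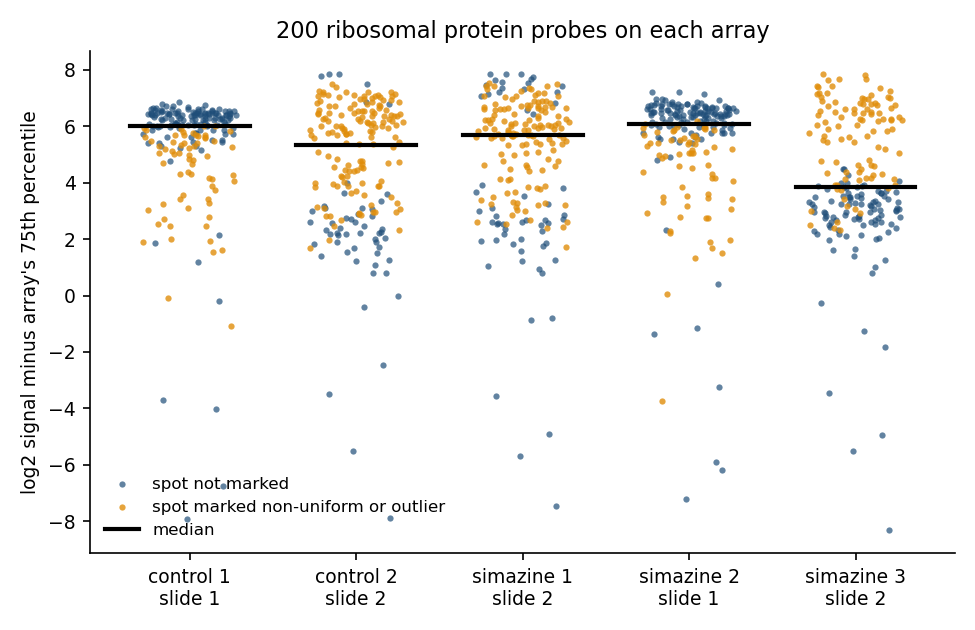
Level of each of the 200 ribosomal protein probes on each array, as log2 signal minus the array's 75th percentile, with the median as a bar. Orange points are spots marked by the scanner software. The medians are 6.0, 5.32, 5.67, 6.06 and 3.83 from left to right, and the upper values bunch together on both arrays of slide 1.

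The upper end of the scale differed between the slides as well. The median signal of the 200 spots was 460776.5 on control 1 and 356648.5 on simazine 2, and the brightest spot of either array read 778147. On slide 2 the median signals were 38986 on control 2, 58559.25 on simazine 1 and 18298 on simazine 3. One ribosomal protein spot, on control 1, was saturated. The part of these differences in the levels was not tested.

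No ribosomal protein probe differed between simazine and control testes at an adjusted p of 0.05 when marked spots were left out. In that comparison, fitted with limma over all 31882 probes with enough values, 1 probe passed the threshold (0.00314% of those tested). Of the 200 ribosomal protein probes, 83 had enough unmarked values and 117 could not be tested. At an unadjusted p under 0.05, 1 of the 83 was higher with simazine, where 2.86% of all probes were, and 6 were lower, where 5.64% of all probes were. The median log2 difference, simazine minus control, was −0.03 over the 83 probes (quartiles −1.27 and 0.34) and 0.10 over all probes tested. Beyond 1 in size, 2 were higher with simazine, where 6.56% of all probes were, and 28 were lower, where 9.33% were.

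The lower quartile of those 83 differences followed which arrays had a value. In 25 probes, the values left were those of control 1, simazine 2 and simazine 3, and their median difference was −1.30. The other 58 had a median of 0.18. Of the 28 probes below −1, 20 belonged to that set of 25. In all, 66 of the 83 probes had a single control value and 6 had all 5 values.

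The 6 positive and 6 negative differences of smallest p belonged to genes of both subunits. The first of the positive ones was that of rps12.S, a protein of the small subunit's head, with a log2 difference of 2.96 ± 0.35 (SE, 1 control and 2 simazine values, limma adjusted p = 0.196). The others were a second rps12.S probe at 0.74, rps7.L at 0.64, rpl28.S at 0.79, rps20.L at 0.92 and rps20.S at 0.66, with adjusted p between 0.884 and 0.953. The negative differences were rps15.L at −3.66, rps23.L at −3.06, rpl36.L at −2.01, rps13.L at −1.27, rpl12.S at −1.48 and rpl24.L at −2.24, with adjusted p between 0.234 and 0.531. None of the 12 passed the threshold. The values of rps13.L were 2.16 and 2.04 in the controls and 5.40, 0.41 and 1.25 in simazine 1, 2 and 3, and its difference was negative only because the spot on simazine 1 was marked. With that spot kept, the difference of rps13.L was 0.26 ± 1.51 (SE), which shows no direction.

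With marked spots kept, all 200 ribosomal protein probes could be tested, and 1 of them passed. The same fit called 372 of 36380 probes (1.02%). The probe called was the second of 3 for rps12.S, whose levels were −1.07 on control 1, near 0 on control 2, and 2.84, 3.08 and 3.08 on simazine 1, 2 and 3. All simazine values lay above both control values. The log2 difference was 3.53 ± 0.42 (SE, 2 control and 3 simazine values, limma adjusted p = 0.0398). It ran from 3.49 to 3.61 with 1 simazine array left out. It was 3.0 without control 1 and 4.06 without control 2. No ribosomal protein probe was called when any 1 simazine array was left out. Of these fits, only that without simazine 2 called any probe of any gene, 314 of 34356. With all arrays, the other probes of rps12.S differed by 0.24 ± 0.76 and −0.09 ± 0.33. Over the 200 probes the median difference was −0.12 (quartiles −0.43 and 0.16), and over all probes tested it was 0.04. At an unadjusted p under 0.05, 3 were higher (2.6% of all probes) and 5 were lower (6.12%). The groups did not overlap in 10 probes with simazine higher, where 9.68% of all probes tested did so, and in 6 with simazine lower, where the share was 10.6%.

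A fit with the slide as a block, which compares simazine with control within each slide, gave narrower errors and called 3 ribosomal protein probes. It called 825 of 36380 probes (2.27%). The rps12.S probe differed by 3.47 ± 0.35 (SE, limma adjusted p = 0.0375) in that fit. A probe of rps7.L, a small-subunit protein, had levels of 2.54 and 3.08 in the controls and 5.56, 4.79 and 5.64 in simazine 1, 2 and 3. Its groups did not overlap, and the difference was 2.40 ± 0.18 (SE, limma adjusted p = 0.0241), against 2.52 ± 0.42 (adjusted p = 0.0774) without the block. Its spots were marked on 4 of the 5 arrays, so it had no test with marked spots left out. The probe of rpl36.L, a large-subunit protein, had levels of −4.02 and −2.45 in the controls and −4.92, −5.90 and −4.92 in simazine 1, 2 and 3. It fell by 2.21 ± 0.22 on the log2 scale (SE, limma adjusted p = 0.0377), against a difference of −2.01 ± 0.61 (adjusted p = 0.322) without the block. None of its spots was marked, but its median signals were low, at 409 and 376.5 in the controls and 116, 101 and 87 with simazine. Without the block, the rpl36.L difference was −1.23 with control 2 left out and −2.79 with control 1 left out. It was −1.15 (adjusted p = 0.450) with the local deviation taken off. Under normexp, another background correction, it was −1.18 (limma adjusted p = 0.896) with 75th percentile scaling and −1.52 (0.0827) with quantile scaling. On slide 1 alone the rpl36.L and rps12.S probes differed by −1.88 and 4.14, and on slide 2 by −2.47 and 2.96.

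Most of the 200 differences were small in the fit with the slide as a block. Their median was 0.02, against 0.06 over all probes tested, and 103 were above 0 and 97 below. Of the 200, 4 were above 1 (4.43% of all probes) and 8 below −1 (8.89%). At an unadjusted p under 0.05, 7 were higher (6.65% of all probes) and 5 were lower (8.45%). The median 95% interval reached 0.79 to either side, and for 93 of the 200 probes the interval lay wholly between −1 and 1. Without the block the median interval reached 1.71 to either side and 27 lay wholly within these limits. For the other probes the interval reached beyond 1 in size.

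Where a probe lay on the array went with the size of its difference. With marked spots kept, 15 of the 200 probes differed by more than 1 on the log2 scale, 4 of them higher with simazine (5.95% of all probes) and 11 lower (8.84%). Of these 15 probes, 10 were among the 53 in distorted areas and 5 among the 147 outside them. The 10 all lay between rows 244 and 296 of the array, a range drawn here around these same probes, so it gives no count of its own for them. Of the 3797 probes of any gene tested in those rows, 71.7% were beyond 1, against 8.16% in the other rows. The part of position in single differences was not tested.

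**Figure D2:**
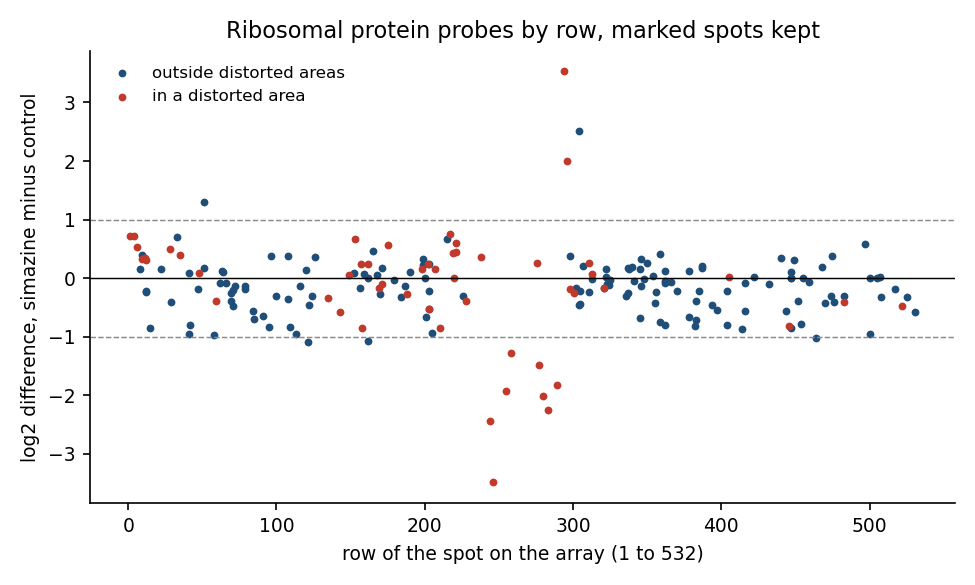
Log2 difference of each ribosomal protein probe, simazine minus control with marked spots kept, by the row of its spot. Red points lie in distorted areas. Of the 53 red points, 10 lie beyond the dashed lines at 1 and −1, all in rows 244 to 296, and of the 147 blue points 5 do.

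The 10 probes of the distorted rows came from 10 gene copies and pointed both ways. The second rps23.L probe, for a protein at the decoding site of the small subunit, had levels of 6.46 and 6.36 in the controls and 3.80, 1.97 and 3.0 in simazine 1, 2 and 3. All simazine values were lower, and the difference was −3.49 ± 0.58 (SE, limma adjusted p = 0.0791). The other rps23.L probe, in row 63, had a difference of 0.12 ± 0.82. The first probe of rpl3.L, for a protein beside the peptidyl transferase centre, had levels of 6.24 and 4.75 in the controls and 5.70, 1.32 and 2.15 in simazine 1, 2 and 3. There simazine 1 lay between the controls, so the groups overlapped, and the other 3 probes of rpl3.L differed by −0.23, 0.33 and 0.26. The second probe of rpl14.S had levels of 1.88 and 1.68 in the controls and 3.67, 4.38 and 3.32 in simazine 1, 2 and 3, all higher with simazine, with a difference of 2.00 ± 0.42 (SE, limma adjusted p = 0.128). The other probes of rpl14.S differed by 0.16 and −0.41.

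Another 5 of these 10 probes had negative differences, and none of the 5 was called in this fit. The first probe of rpl28.L had levels of 4.38 and 4.43 in the controls and 1.56, 3.18 and 2.71 in simazine 1, 2 and 3. Those groups did not overlap, and the second rpl28.L probe differed by −0.22. For rpl24.L, whose protein lies at the interface between the subunits, the levels were −0.21 and 0.79 in the controls and −0.80, −3.24 and −1.82 in simazine 1, 2 and 3. For rps24.L they were 1.86 and 1.39 against 1.06, −1.37 and −0.26. Neither overlapped between groups, and each was the only probe of its gene copy. For the second rpl12.S probe the levels were 1.18 and −0.41 against −0.88, −1.14 and −1.26, and for the second rps15.L probe 5.62 and 3.96 against 6.62, 2.34 and 1.60. The rpl12.S groups did not overlap, while simazine 1 was the highest array for rps15.L. The remaining 2 of the 10 are the rps12.S and rpl36.L probes described above.

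With marked spots kept, the same gene copies gave smaller differences where they could be read elsewhere on the array. These copies were picked by a probe beyond 1 in size in the same data. Their other probes would tend to be smaller in any case, so nothing is concluded from this. Of the 10 gene copies, 7 had further probes outside the distorted areas, 10 probes in all. Their differences ran from −0.83 to 0.34 with a median of −0.15, and none was beyond 1. With marked spots left out, the sister probes of rpl12.S were at −1.32 and −1.25, beside −1.48 for the probe in the distorted rows. With the distorted areas left out and marked spots kept, limma called 108 of 26995 probes (0.4%) and none of 147 ribosomal protein probes. At an unadjusted p under 0.05, 1 of the 147 was higher (1.19% of all probes) and 0 were lower (2.66%). With the slide as a block added, a setting chosen after seeing the data, limma called 258 of 26995 probes. The rps7.L probe in row 304 was the 1 ribosomal protein probe called (limma adjusted p = 0.0176). The median difference of the 147 probes was −0.14, with an SD over probes of 0.47, against an SD of 1.09 over the 53 probes in distorted areas.

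Outside the distorted areas, 2 probes were above 1 (3.1% of all probes left) and 3 were below −1 (3.09%). The rps7.L probe was the largest of them, and its 3 sister probes differed by 0.44, −0.44 and 0.27. Those below −1 were rpl13.S at −1.09 ± 0.70, the third rpl10.S probe at −1.07 ± 0.90 and the second rps15.S probe at −1.02 ± 1.22. The groups overlapped in each of these 3, whose adjusted p in limma lay between 0.995 and 1.000. In rpl10.S, which joins the large subunit late in its assembly, the low array was simazine 3 alone: the levels were 6.39 and 6.36 in the controls and 6.01, 6.37 and 3.54 in simazine 1, 2 and 3.

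By role, the fit with the slide as a block with marked spots kept gave medians close to 0 in most groups. The stalk of the large subunit, which recruits translation factors, is built from rplp0, rplp1 and rplp2 and had 4 probes with a median of −0.38 (−0.69 to 0.37). The levels of rplp0.S were 5.95 and 5.41 in the controls and 5.65, 6.05 and 4.12 in simazine 1, 2 and 3. Those of rplp1.L were 6.52 and 4.46 against 6.0, 6.77 and 3.86. Both overlapped between groups, with simazine 3 the lowest array. The rplp2.L and rplp2.S probes differed by −0.69 ± 0.72 and −0.51 ± 0.71. The unadjusted p of the 4 stalk probes lay above 0.05 both with and without the block.

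The proteins rpl5 and rpl11 bind the 5S ribosomal RNA, and in mammals they also bind Mdm2 when ribosome assembly fails. Their 6 probes had a median of 0.10 (−0.28 to 0.35), and none lay in a distorted area. The levels of rpl5.L were 3.01 and 1.83 in the controls and 1.94, 2.92 and 2.30 in simazine 1, 2 and 3, with the arrays of slide 1 high and those of slide 2 low. The third rpl11.S probe read 5.62 and 6.53 against 5.85, 5.75 and 6.05. Neither gene separated the groups.

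The proteins rpl3, rpl8 and rpl10 lie around the site where peptide bonds form, and their 12 probes had a median of −0.13 (−2.58 to 0.69). The lowest of these was the rpl3.L probe of the distorted rows. The third rpl3.L probe had levels of 6.43 and 7.51 in the controls and 7.73, 6.48 and 7.68 in simazine 1, 2 and 3, and its difference was 0.14 ± 0.17. Within each slide, simazine and control differed less in that probe than the slides did. Proteins that line the exit tunnel, among them rpl4, rpl17 and rpl23a, had 20 probes with a median of 0.08 (−0.32 to 0.64). The 9 rpl4 probes of both copies ran from −0.32 ± 0.27 to 0.64 ± 0.20, and 8 of them had an unadjusted p above 0.05. The 65 probes of the other large-subunit proteins had a median of −0.06 (−2.50 to 2.10).

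In the small subunit, proteins of the mRNA entry channel and the decoding site, among them rps2, rps3, rps9, rps15 and rps23, had 20 probes with a median of −0.07 (−3.62 to 0.42). The rps3.L probe had levels of 6.0 and 3.33 in the controls and 3.25, 5.86 and 2.85 in simazine 1, 2 and 3, again high on slide 1 and low on slide 2. Platform proteins, rps3a, rps26 and rpsa, had 11 probes with a median of 0.09 (−0.68 to 1.00). The second probe of rpsa.L read 6.42 and 6.53 against 6.72, 6.53 and 6.78 and did not overlap between groups, with a difference of 0.17 ± 0.17. Proteins of the head had 24 probes with a median of 0.05 (−0.51 to 3.47). In rps19.S, the gene most often mutated in human Diamond-Blackfan anaemia, 1 probe differed by 0.72 ± 1.18 and the other, marked on all 5 arrays, by −0.01 ± 0.62.

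The substrate of S6 kinase, rps6, had 5 probes with a median of 0.17 (−0.61 to 0.54). The first rps6.L probe read 5.12 and 2.14 in the controls and 2.34, 5.51 and 2.32 in simazine 1, 2 and 3. It was high on slide 1 and low on slide 2, and within each slide the control was the lowest array. The gene rps27a encodes ubiquitin joined to a small-subunit protein, and its 3 probes, all in distorted areas, differed by −0.18 ± 1.31, 0.95 ± 0.63 and 0.16 ± 0.20. The 25 probes of the other small-subunit proteins had a median of 0.06 (−1.95 to 2.40). The near relatives rpl3l, rpl7l1 and rpl22l1 had 5 probes, none in a distorted area, with a median of 0.02 (−0.38 to 0.24). The first probe of rpl3l.L, known in mammals as the striated muscle form of rpl3, had levels of −3.69 and −3.48 in the controls and −3.55, −3.73 and −3.46 in simazine 1, 2 and 3, and the groups overlapped within that narrow range. Near-identical copies may share signal on this array, which could not be tested because probe sequences were not used here.

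**Figure D3:**
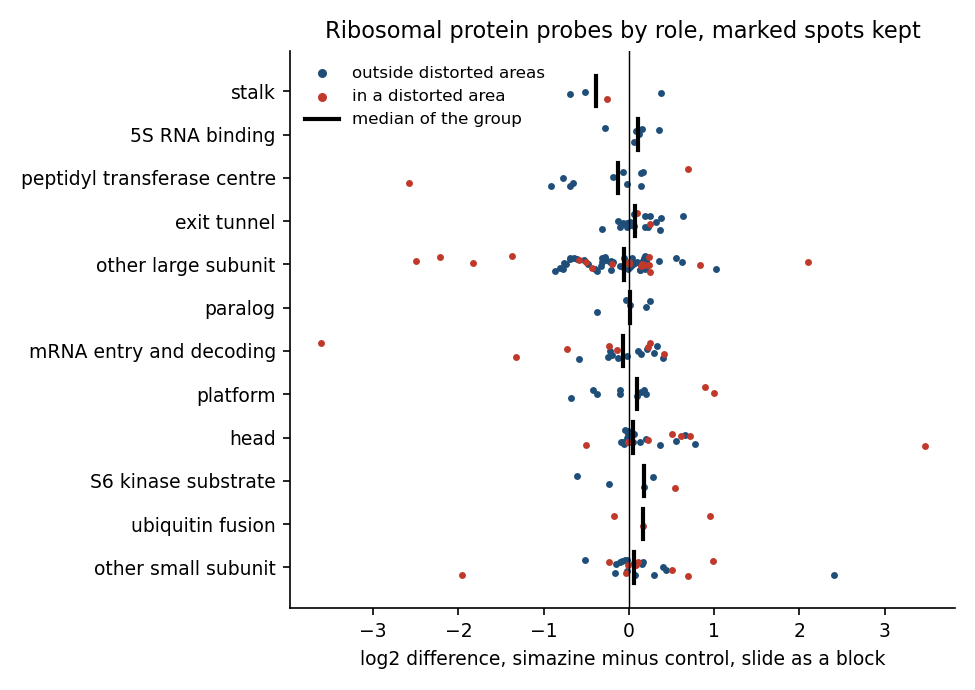
Log2 difference of each ribosomal protein probe, simazine minus control with the slide as a block and marked spots kept, grouped by the role of the protein. Black bars are the group medians, which run from −0.38 in the stalk to 0.17 in the S6 kinase substrate, and the points beyond 1 are mostly red, that is, in distorted areas.

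Probes of the same gene copy often differed from each other. There were 66 gene copies with at least 2 probes, 171 in all, and with marked spots kept the pooled SD of the differences within a copy was 0.65, against 0.68 over these probes as a whole. Deviations within copies made up 56.0% of the sum of squares. The SD within a copy was 0.42 with the distorted areas left out (46 copies) and 0.92 with marked spots left out (16 copies). In that last set, the probes differed most in rps15.L, by 4.37, in rps12.S, by 2.23, and in rpl18.L, by 1.59. Next came rps27a.S at 1.15, rps6.L at 1.07 and rpl5.S at 0.78. They differed least in rpl3l.L, by 0.08, rpl10.S, by 0.10, rpl12.S, by 0.23, and rpl3.L, by 0.30. Only 2 of 5 rpl10.S probes and 2 of 4 rpl3.L probes were tested there. With marked spots kept and all probes read, the ranges were 0.01 in rpl3l.L, 0.99 in rpl10.S, 0.73 in rpl12.S and 2.77 in rpl3.L. The rpl18.L probes with marked spots kept differed by −0.33 and −0.93, and the low value of the second came from simazine 3, at 3.35 against 5.95 to 6.28 on the other arrays.

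**Figure D4:**
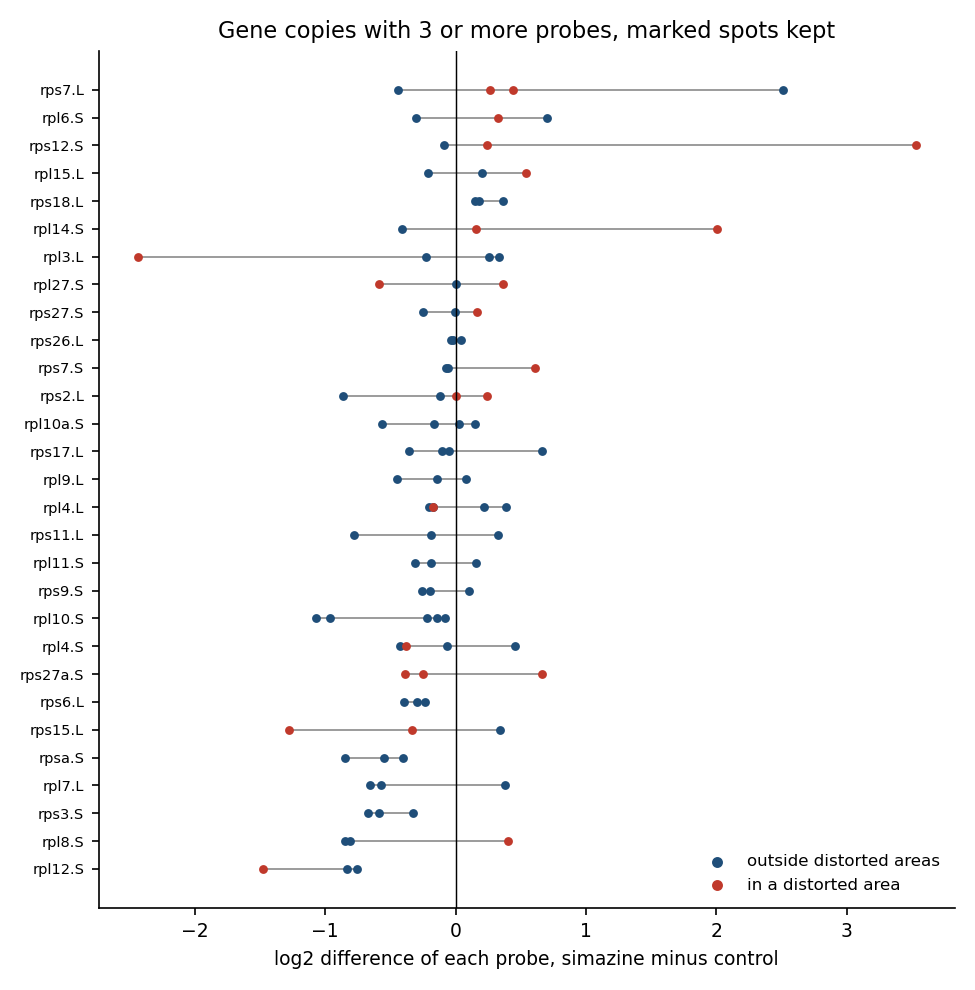
Log2 differences, simazine minus control with marked spots kept, of the probes of each gene copy that has 3 or more probes. Each line joins the probes of 1 copy, and red points lie in distorted areas. In rps12.S, rps7.L, rpl14.S and rpl3.L, 1 probe lies beyond 2 in size while the others stay within 0.5.

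The L and S copies of the same gene could be set side by side in 21 genes. With the probes of a copy averaged, the copies differed by less than 0.5 in 13 genes, with a median size of 0.17, and the L copy had the higher value in 10 of 21. With distorted areas left out, 12 of 17 genes were within 0.5, and the largest difference was 1.36, in rps15. In rps7 the mean difference was 0.70 for L and 0.16 for S, and in rpsa it was 0.46 for L and −0.60 for S. In rps3 the copies were close, at −0.68 and −0.53. No test was made between copies.

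Pairs of arrays within a slide gave different pictures. On slide 1, simazine 2 minus control 1 had a median of 0.15 over the 200 probes and 0.09 over all 36380 probes tested. Of the 200, 159 were above 0, where 21703 of all 36380 were, and 9 were below −1 (4.5%), where 8.61% were. On slide 2, simazine 1 minus control 2 had a median of 0.09 over the 200 probes and 0.05 over all probes tested. Of the 200, 118 were above 0, where 19617 of all 36380 were, and 28 were above 1, where 2442 were. In the same slide, simazine 3 minus control 2 had a median of −0.26, with 54 probes below −1 (27.0%), where 13.7% of all probes tested were. Among the 857 other probes with a mean level above 4, the median for that pair was −0.37 and 20.2% were below −1, and among the 149 ribosomal protein probes above that level the values were −0.44 and 32.9%. Simazine 3 also had the lowest 75th percentile of signal, at 1564.1, and the part of this in its low values was not tested. Over the 200 probes with marked spots kept, the median was 0.10 without simazine 3, −0.56 without control 2 and −0.12 with all arrays.

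**Figure D5:**
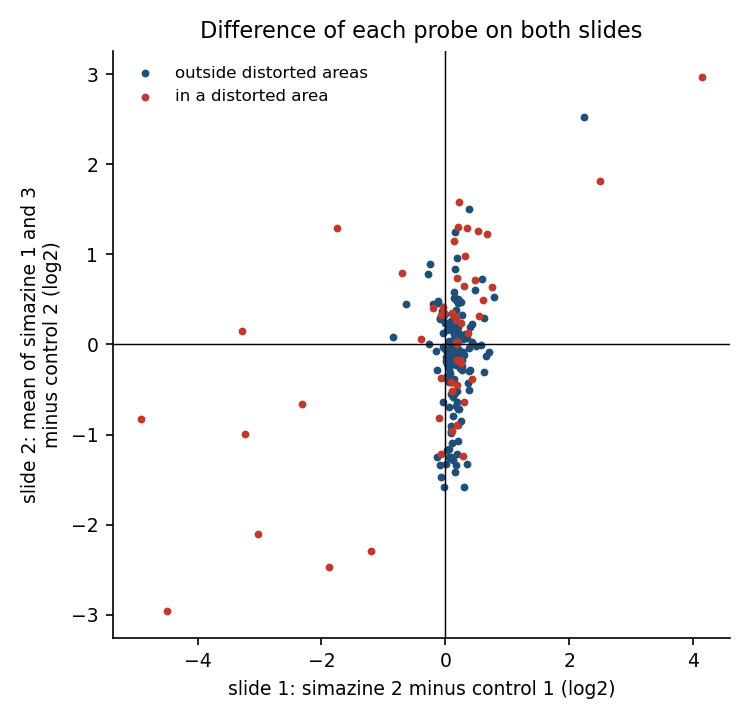
Log2 difference of each ribosomal protein probe on slide 1 (simazine 2 minus control 1) against slide 2 (mean of simazine 1 and 3 minus control 2), with marked spots kept. Most blue points, outside distorted areas, lie within 0.5 of 0 along the slide 1 axis and spread further along the slide 2 axis, and most points far from 0 on both axes are red.

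Other genes of the translation machinery also gave few calls, each read by the brightest probe of the gene. Of 42 mitochondrial ribosomal protein genes, 26 were tested with marked spots left out and none was called (0.00314% of all probes were). At an unadjusted p under 0.05, 3 of the 26 were lower, where 5.64% of all probes were. With marked spots kept, 1 of 42 was called, where 1.02% of all probes were. This was mrpl40.S, in a distorted area, with levels of 1.05 and 0.97 in the controls and −1.80, −2.15 and −1.35 in simazine 1, 2 and 3 (limma adjusted p = 0.0468). None of 33 initiation factor genes, 63 tested ribosome biogenesis genes, 20 genes of RNA polymerases I and III, 17 genes of the S6 kinase and mTOR pathway or 7 elongation factor genes was called in that fit. Their medians were −0.08, −0.11, −0.03, 0.07 and −0.20, beside 0.04 over all probes. The biogenesis gene efl1.L, whose protein releases a factor from new large subunits, had levels of −6.21 and −5.50 in the controls and −4.09, −4.91 and −4.34 in simazine 1, 2 and 3 (adjusted p = 0.312), with no overlap. The small-subunit proteins fau and rack1, known by other symbols, were not called, and rack1.L read 6.57 and 7.33 in the controls against 6.83, 6.78 and 6.57.

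Markers of oocytes moved with the groups. Of 20 oocyte marker genes, 17 were tested with marked spots left out and none was called (0.00314% of all probes were). At an unadjusted p under 0.05, 12 of the 17 were lower, where 5.64% of all probes were. With marked spots kept, 10 of 20 were called lower with simazine, where 1.02% of all probes were called. With the distorted areas left out too, 8 of 14 were called lower, where 0.4% of all probes were called. The summed level of the oocyte list, in units of each array's 75th percentile, was 72.1 and 50.9 in the controls and 10.3 to 10.8 with simazine. None of the list was at 0, and 19 or 20 of the 20 were well above background on each array. The egg chaperone npm2.L read 3.65 and 3.16 in the controls and 0.00, 0.01 and −0.14 in simazine 1, 2 and 3. Of 12 spermatogenic marker genes none was called, and their summed level was 289.3 and 445.1 in the controls and 291.1 to 447.8 with simazine. None of 9 testis somatic markers was called either, with a summed level of 50.8 and 55.8 in the controls and 53.4 to 63.2 with simazine, and both lists lay well above background on every array except 1 somatic gene on simazine 3. The summed levels of 7 erythrocyte markers were 117.0 and 144.1 against 145.0 to 155.3, and those of 4 leukocyte markers were 14.61 and 20.85 against 15.7 to 25.7. With marked spots kept, no erythrocyte marker was called, and 1 of 4 leukocyte markers was called higher, where 1.02% of all probes were called. This was mpo.L in a distorted area, at −7.97 and −9.36 in the controls and −2.29, −3.26 and −2.95 in simazine 1, 2 and 3 (limma adjusted p = 0.0255). The mean log2 level of the 4 leukocyte markers was −2.65 and −3.15 in the controls and −1.52 to −1.26 with simazine. With marked spots kept, mpo.L differed by 5.83, coro1a.S by −0.22 and lcp1.S by −0.03, and the median difference of the 4 was 0.14. The part of leukocytes was not tested. The part of oocytes in the ribosomal protein values was not tested.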

How the data were processed

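Total RNA of 5 testis samples was amplified to Cy3-labelled cRNA and hybridised to Agilent arrays, per the labels' protocols. Per the file headers, the deposited intensity values come from Agilent Feature Extraction software, version 10.7.3.1. These subtract the background and, on slide 2 alone, correct a trend over the array. The authors' deposited log2 table equals log2 of these signals minus a constant per array, within 0.01, for over 99% of its probes. Its medians were 1.06, 0.95, 0.96, 1.02 and 0.95, and what set the constants stays unknown.

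Here log2 signal was taken relative to each array's 75th percentile, spots of 1 probe were averaged, and control spots and marked spots were left out. Probes with at least 3 values (1 per group) and well above background on 2 or more arrays were fitted with limma 3.58.1 in R 4.3.3 (lmFit, eBayes, two-sided), with Benjamini-Hochberg adjustment over all probes and a threshold of 0.05. The fit was tested on simulated data. The number of arrays limits the precision. Genes were named from RefSeq accessions (assembly Xenopus_laevis_v10.1), which gave 16032 named probes. Named probes were those past the threshold, the 6 rises and 6 falls of smallest p, the genes whose probes differed most (6) and least (4), members fixed by role, and up to 3 genes per other list. Other genes are named where a small count or a group called for it, after their values were seen. The members and lists were chosen with earlier results of these data known. Normexp was run on median signals, since mean signals were not used here. Some results are not reported here.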

Additional observations from a re-analysis of the deposited data

How the results depend on the processing

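With marked spots left out, limma called no ribosomal protein probe with the slide as a block. None was called under normexp with either scaling, quantile normalization, the authors' log2 table, other filters on dim probes, or without any 1 simazine array. Over all probes, normexp with quantile scaling called 283 of 31882 and quantile normalization called 96 of 31882. The authors' log2 table gave 2 of 26842, and probes well above background on all arrays gave 4 of 24107. The other fits named here called no probe of any gene. An unadjusted p under 0.05 was reached by 7 of 83 probes, where 8.5% of all probes reached it. Under the other scalings and filters 6 to 8 reached it (4.65% to 10.2% of all probes), and with the slide block 6 of 46 (12.2%). With 1 simazine array left out, 1 to 4 reached it (30 to 47 probes tested), where 8.48% to 13.3% of all probes did. The median difference was −0.03 and ran from −0.23 to 0.22 under the other scalings and filters, the slide block and slide 2 alone. With 1 array left out it ran from −1.24 (without simazine 1) to 0.30 (without simazine 3), and was −1.17 without control 2. With marked spots kept, 1 probe was called, and 3 with the slide as a block. An unadjusted p under 0.05 was reached by 8 and 12 (8.72% and 15.1% of all probes). With 1 simazine array left out none was called, and 6 to 11 reached that p (6.67% to 11.2% of all probes). Of these fits, only that without simazine 2 called any probe of any gene. With any 1 array left out, the median ran from −0.56 to 0.10. With distorted areas left out none was called and 1 reached that p (3.85% of all probes). With the slide block added, a setting chosen after seeing the data, these were 1 and 3. Over all probes, 258 of 26995 were called there and 10.95% reached that p. With the local deviation taken off, none was called and 5 reached that p (6.63% of all probes). The median was then −0.24 (−0.02 over all probes). Of the 200 probes, 4 were above 1 and 11 below −1, the same counts as before, though not all the same probes. Each probe of the distorted rows was smaller in size there. The rps12.S probe was at 2.53, rps23.L at −3.15, rpl3.L at −2.075, rpl24.L at −1.91 and rpl14.S at 1.35. The others were rpl36.L at −1.15, rps24.L at −1.11, rpl12.S at −0.785, rps15.L at −0.64 and rpl28.L at −0.62. The SD within gene copies was 0.55 with the local deviation taken off, beside 0.42 with distorted areas left out and 0.92 with marked spots left out. The cause of these shifts was not tested. Over all probes the count called ran from 0 to 825. Nearly all of these probes lie well above background. The comparison rests on 2 control and 3 simazine arrays, 117 of the 200 probes had too few unmarked values, and 53 lay in distorted areas. How much each of these limits the precision was not tested. No paired analysis by replicate number was possible because the labels share none between groups. The slide block was the comparison run within sets of arrays.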
